A study of Populus alba x Populus glandulosa with 18 samples.

Results

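Potri.005G079000 is a copy of the sulfate transporter gene SULTR2;1 (AST68) of poplar, 1 of 42950 gene models in the deposited table. It lies on chromosome 5 from 5820587 to 5824865 of the *P. trichocarpa* genome (version 3.1) that the authors aligned to. The gene was chosen on its measured difference between genotypes in the 3 stem tissues, as a copy whose level was far higher in the stem apex of *PagDET2*-OE lines and in no other tissue. Those differences are therefore given as a description without a test. The latter did not hold in the counts: the level was also higher in every xylem library of the overexpression lines. Its background is the other 21 rows whose symbol holds SULTR, of which 3 are copies that also carry the symbol SULTR2;1.

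Plants take up sulfur as sulfate and move it between cells and organs with the SULTR family of membrane transporters. In *Arabidopsis*, members of group 1 are high-affinity transporters, and SULTR2;1 is a low-affinity transporter of vascular parenchyma that acts in moving sulfate along the vascular system. Members of group 3 have been linked to plastids among other places, and SULTR4;1 releases sulfate from the vacuole. Inside the cell ATP sulfurylase (APS) activates sulfate, APS reductase (APR) reduces it towards sulfide, and the sulfide enters cysteine. In *Arabidopsis* the transcripts of SULTR2;1 and of several APS genes share a regulatory microRNA, miR395, which accumulates when sulfate is scarce. MicroRNAs were not analysed here.

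RNA was sequenced from 18 samples of 2-month-old greenhouse trees of 84K, the hybrid *Populus alba* × *P. glandulosa*, with 3 replicates in each of 6 groups and no treatment. The genotypes were the 84K wild type and lines of 84K that overexpress *PagDET2*, which encodes a steroid reductase of brassinosteroid synthesis, under the 35S promoter. The 35S promoter acts in most cell types, and the labels give DET2 overexpression without naming the line, so that an effect of a single line and that of overexpression cannot be told apart. PS pooled the shoot apex with the uppermost internodes (shoot apical meristem in the labels), BA was bark with phloem and cambium from lower internodes (cambium in the labels), and XY was the xylem beneath it. Libraries of different tissues may come from the same trees, whereas the tests take them as independent, and the p-values measure the spread between these samples only.

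The libraries held 7983668 to 12052409 counts (median 9625227). *DET2* (Potri.016G110600) had 46 to 81 counts in the 9 wild-type libraries and 12777 to 25649 in the 9 overexpression libraries, transgene and endogenous transcripts together, which fits the labels in all 18. Tissue markers chosen by symbol separated the tissues in part. Rows of secondary wall synthesis in the xylem summed to 26702 to 28319 CPM in 84K XY and to at most 1192 CPM in the other wild-type tissues, and 10 phloem rows summed to 1420 to 1457 CPM in 84K BA, 148 to 161 CPM in 84K PS and 1119 to 1147 CPM in 84K XY, there nearly all from a single SUC2 copy. Apex and meristem rows did not single out PS by their sum, with 489 to 541 CPM in 84K PS and 671 to 698 CPM in 84K BA. A single CLV1 copy (Potri.005G241500) had 26.5 CPM in 84K PS and 277 CPM in 84K BA, more than the gap between these sums. Cambium rows summed to 2464 to 2558 CPM in 84K XY and 2001 to 2075 CPM in 84K BA. Of the apical meristem genes, *KNAT1* was at 338 CPM in 84K PS and 265 CPM in 84K BA. The *STM* copies Potri.011G011100 and Potri.004G004700 were at 57.1 and 39.7 CPM in 84K PS and at 67.7 and 55.4 CPM in 84K BA. In 84K PS both *WUS* copies were at 0 CPM and *LFY* at 0.246 CPM. CPM are counts scaled to library size after TMM, which allows for library composition, over all 18 libraries, and FPKM are the authors' values per length. TMM raised XY against PS and BA by 0.54 and 0.53 on the log2 scale, because its factors were 0.773 to 0.797 in 84K XY and 1.13 to 1.15 in 84K PS and BA. Between genotypes of 1 tissue the shift was at most 0.09.

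Across the 6 groups the gene was a transcript of the bark. In 84K BA the replicates 1 to 3 held 255, 283 and 355 counts, which the authors give as 15.9, 14.7 and 16.4 FPKM. In 84K XY they held 18, 18 and 19 counts (1.18, 1.10 and 0.919 FPKM). In 84K PS they held 5, 2 and 4 counts (0.283, 0.108 and 0.224 FPKM). The groups of the wild type did not overlap, and the PS libraries stood close to the 3 counts that a count of 0 still allows. The level was 26.1 ± 1.52 CPM (SD, n = 3) in BA, 2.58 ± 0.288 CPM in XY and 0.341 ± 0.148 CPM in PS.

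The order of tissues in the wild type was tested on counts, since tissues were not compared in choosing the gene. The same wild-type libraries nevertheless entered the genotype contrasts that chose it. A choice for a far higher level in PS of the overexpression lines favours genes with a low level in wild-type PS. That choice pushes PS against BA and PS against XY towards a lower PS. Their adjusted p are not free of it and are given as a description. PS was lower than BA, with a log2 fold change of -6.22 (standard error 0.22, quasi-likelihood test of edgeR, adjusted p = 8.68e-15), and lower in 3 of 3 libraries. The ratio of pooled counts, BA over PS, was 77.3, with an exact 95% interval of 43 to 155 that covers counting error only. XY was lower than BA by a log2 fold change of -3.31 (standard error 0.17, adjusted p = 1.1e-12), and PS was lower than XY by -2.91 (standard error 0.34, adjusted p = 2.03e-07). Of all 24986 genes tested in the wild type, 33.2% were lower in PS than in BA, 38.3% lower in XY than in BA and 36.6% lower in PS than in XY, so a difference between tissues is itself common. On FPKM, which carry no TMM factor, the last difference was -1.98 with a pseudocount of 0.1 and -0.78 with a pseudocount of 1 (limma, adjusted p = 2.79e-05 and 4.63e-05).

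**Figure D1:**
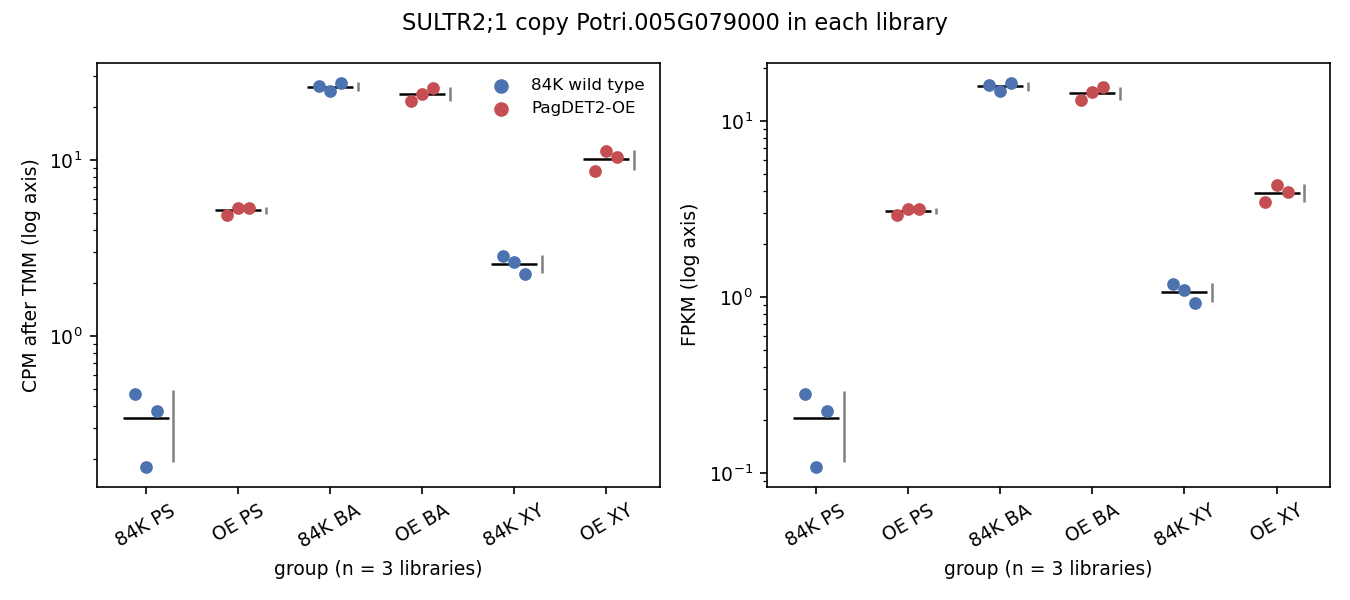
Level of Potri.005G079000 in each of the 18 libraries as CPM after TMM (left) and as the authors' FPKM (right), both on log axes; points are libraries, black lines group means and grey bars ± 1 SD (n = 3). The 84K PS libraries sit lowest, at 0.179 to 0.470 CPM, and the groups of PS and of XY are apart between genotypes while those of BA overlap.

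In the *PagDET2*-OE lines the same gene was no longer almost silent in the apex. The PS libraries of the overexpression lines held 48, 62 and 58 counts, or 2.92, 3.17 and 3.14 FPKM, against 5, 2 and 4 counts in 84K. Every overexpression library was above every wild-type library. The level went from 0.341 ± 0.148 to 5.17 ± 0.247 CPM, a fitted log2 fold change of 3.89, or 14.8-fold, and a ratio of pooled counts of 15.3 with an exact 95% interval of 8.34 to 31.2. The interval is wide because the wild type held 11 counts in all. Across all genes tested in PS, 8.08% were higher in the overexpression lines, and nothing is read from this gene's place among them, because the contrast chose it. With a pseudocount of 1 FPKM, which exceeds the wild-type level, the log2 fold change was 1.76.

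In the xylem the difference ran the same way and was smaller. The XY libraries of the overexpression lines held 60, 84 and 91 counts, or 3.45, 4.33 and 3.96 FPKM, against 18, 18 and 19 counts in 84K. The groups did not overlap here either. The level went from 2.58 ± 0.288 to 10.1 ± 1.28 CPM, a fitted log2 fold change of 1.94 (1.84 to 2.02 with any 1 library left out), and the ratio of pooled counts was 3.98 with an interval of 2.96 to 5.44. Among the genes tested in XY 10% were higher. With the pseudocount of 1 FPKM the log2 fold change was 1.25.

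In the bark, where the gene was most abundant, the genotypes overlapped. The BA libraries of the overexpression lines held 228, 268 and 282 counts, or 13.1, 14.5 and 15.5 FPKM, against 14.7 to 16.4 FPKM in 84K. The fitted log2 fold change was -0.12, and the ratio of pooled counts was 0.906 with an interval of 0.822 to 0.999 for counting error. The level was 23.7 ± 2.13 CPM in the overexpression lines and 26.1 ± 1.52 CPM in 84K, a difference of about the size of the spread between libraries. The shares of all genes tested in BA that passed were 6.19% for higher and 5.34% for lower.

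Ordered by mean CPM, the 6 groups ran from 84K PS over 84K XY, *PagDET2*-OE PS, *PagDET2*-OE XY and *PagDET2*-OE BA to 84K BA. The last pair was the only pair of neighbours whose libraries overlapped (21.5 to 25.8 and 24.5 to 27.5 CPM). Overexpression PS lay above wild-type XY (5.17 and 2.58 CPM on average) and stayed far under bark of either genotype. Bulk samples do not tell fewer cells of a type from less RNA in each cell, so the levels are those of whole tissue samples.

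The other SULTR2;1 rows had few counts, and none followed the same pattern. Potri.007G088700, on chromosome 7 from 11479543 to 11483429, is the other copy on a chromosome. In XY it held 21, 21 and 11 counts in 84K and 4, 0 and 1 in the overexpression lines, opposite in direction to Potri.005G079000. The ratio of pooled counts there was 11.4, wild type over overexpression, with an interval of 4.58 to 36.5. In BA it had at most 5 counts in any library, and in PS 1, 10 and 6 counts in 84K overlapped with 14, 6 and 10 in the overexpression lines. The row was removed by the count filter in each tissue. Kept in the test without the filter, it had a log2 fold change of -3.46 in XY (adjusted p = 0.00071, edgeR's quasi-likelihood test).

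Potri.T079966, a row of scaffold_87 from 105212 to 105986, had at most 9 counts in a library. All 9 of its PS counts in the overexpression lines came from replicate 3. In XY it held 6, 4 and 8 counts in 84K and 0, 0 and 3 in the overexpression lines, again opposite in direction to Potri.005G079000. The ratio of pooled counts there was 6.44, wild type over overexpression, with an interval of 1.88 to 34.1. In BA it held 2, 4 and 3 counts in 84K and 0 in each overexpression library. Potri.T080032 had no count. How the authors counted reads that match several copies is not given in the sources used here, and reads of the hybrid were aligned to another poplar, so counts could be split between copies. Summed over the 4 rows, the counts per library were 7 to 12 in 84K PS and 62 to 77 in *PagDET2*-OE PS (ratio of pooled counts 7.15, interval 4.83 to 10.9). In XY the sums were 38 to 45 and 64 to 95 (1.80, 1.44 to 2.25), and in BA 259 to 358 and 233 to 284 (0.903, 0.819 to 0.994). The sums kept the direction of Potri.005G079000 in each tissue with smaller ratios in PS and XY.

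Within the whole family the gene was a minor member in PS and XY and a larger one in BA. By FPKM, which compare genes per length, it took 0.245 ± 0.110% (SD, n = 3) of the sum of all 22 SULTR rows in 84K PS and 4.17 ± 0.216% in *PagDET2*-OE PS, where it ranked 16 and 5 among the rows. In XY its share was 1.15 ± 0.190% in 84K and 4.93 ± 0.363% in the overexpression lines. In BA it was 7.44 ± 0.320% and 7.79 ± 0.523%, with rank 3 in both genotypes. The family sum itself was 84.2 ± 1.89 FPKM in 84K PS and 73.8 ± 4.19 FPKM in *PagDET2*-OE PS, so the higher level of this copy came with no higher sum. The most abundant row was SULTR2;2 (Potri.002G092400), a group 2 transporter, in PS at 28.1 FPKM in 84K. It was SULTR3;3 (Potri.008G130400) in BA, with 97.2 FPKM, and SULTR3;1 (Potri.008G156600) in XY, with 42.6 FPKM.

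**Figure D2:**
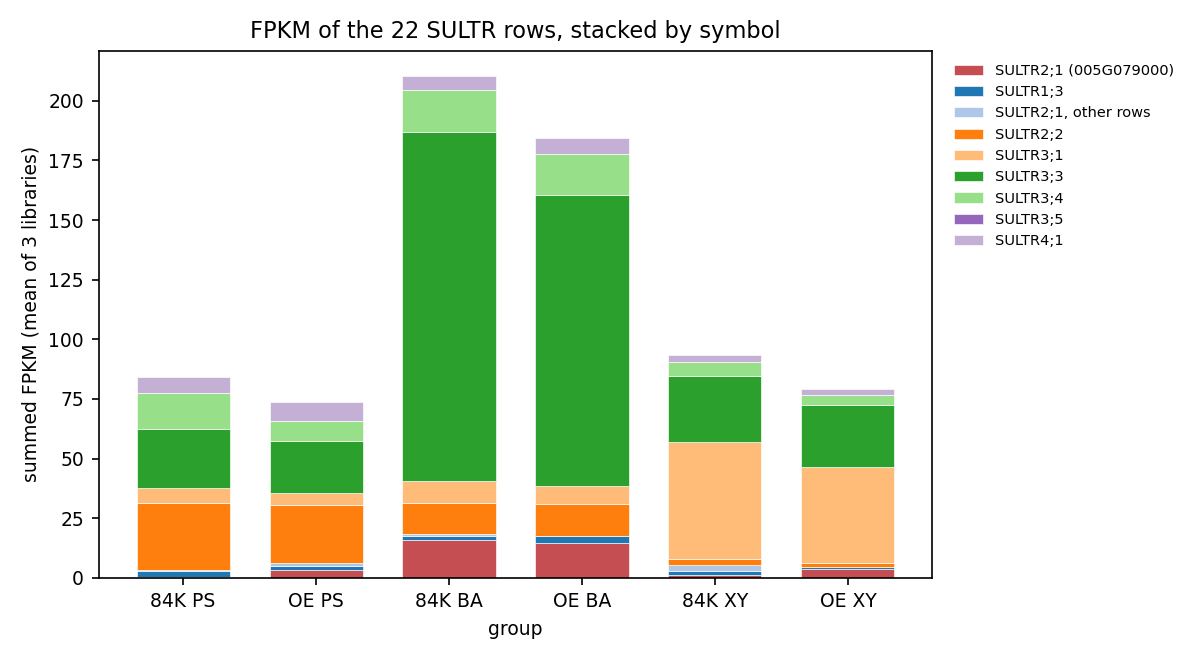
Authors' FPKM of the 22 SULTR rows in each group, as stacked means of 3 libraries, coloured by symbol with Potri.005G079000 apart at the bottom in red. The red part is hardly visible in 84K PS (0.245% of the sum) and is 7.44% of the sum in 84K BA, where SULTR3;3 takes the largest part.

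In the wild type, bark over apex was a pattern shared by some of the family. Of the other 21 SULTR rows 14 passed the count filter over the wild-type libraries. PS was higher than BA in 6 and lower in 6, where 34.8% and 33.2% of all genes tested were higher and lower. SULTR3;3 (Potri.010G111700) had the same order of tissues, with 2.26 ± 0.912 CPM in PS, 56.6 ± 2.68 in BA and 24.2 ± 1.23 in XY. Unlike Potri.005G079000 it held 2.29 to 2.54 CPM in *PagDET2*-OE PS, inside the range of 84K PS (1.69 to 3.31 CPM; log2 fold change 0.07, adjusted p = 0.905, edgeR's quasi-likelihood test). SULTR3;4 (Potri.001G179400), whose *Arabidopsis* counterpart has been linked to phosphorus distribution, was at 1.11 ± 0.285 CPM in PS and 14.8 ± 1.06 CPM in BA (adjusted p = 5.64e-12), again with no passing difference between genotypes in any tissue. SULTR3;1 (Potri.008G156600) was highest in the xylem, with 152 ± 18.2 CPM in XY and 0.576 ± 0.336 CPM in BA.

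PS against XY had 5 of the 14 rows higher and 6 lower (42.1% and 36.6% of all genes tested), and XY against BA 5 higher and 8 lower (33.6% and 38.3%). Some of these calls depend on the TMM shift of XY. On FPKM, SULTR1;3 (Potri.005G167300 and Potri.005G169300) changed from log2 fold changes of 0.55 and 0.77 in XY against BA to -0.02 and 0.18 (adjusted p = 0.919 and 0.4, limma), and SULTR4;1 (Potri.010G211400) from -0.43 to 0.13 in PS against XY (adjusted p = 0.597).

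Between genotypes, 13 of the other SULTR rows were tested in the apex. In the *PagDET2*-OE lines 0 were higher and 3 lower with edgeR's quasi-likelihood test (8.08% and 6.90% of all genes). For 13 rows a count of 0 higher is near the background, so nothing about the family is read from it. At an unadjusted p under 0.05 the counts were 1 and 7, and DESeq2 and limma on FPKM also gave 0 higher. A replicate block gave 1 higher and 4 lower, and leaving out 84K PS replicate 3 gave 1 higher and 3 lower. Without *PagDET2*-OE PS replicate 3 the passing rows numbered 5, all lower, in place of 3. The median log2 fold change of the 13 rows was -0.18 beside 0.00 over all genes. SULTR3;4 (Potri.003G056200) fell from 33.1, 32.1 and 32.1 CPM in 84K to 17.5, 19.7 and 16.4 CPM, a log2 fold change of -0.86 (adjusted p = 1.4e-05). The pair of SULTR1;3 copies, high-affinity transporters of the phloem in *Arabidopsis*, fell from 12.5 ± 1.38 to 7.68 ± 1.28 CPM (Potri.005G167300) and from 15.1 ± 1.47 to 9.64 ± 1.62 CPM (Potri.005G169300), with adjusted p of 0.00348 and 0.00457, and these calls are lost on FPKM with limma (adjusted p = 0.0608 and 0.103).

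**Figure D3:**
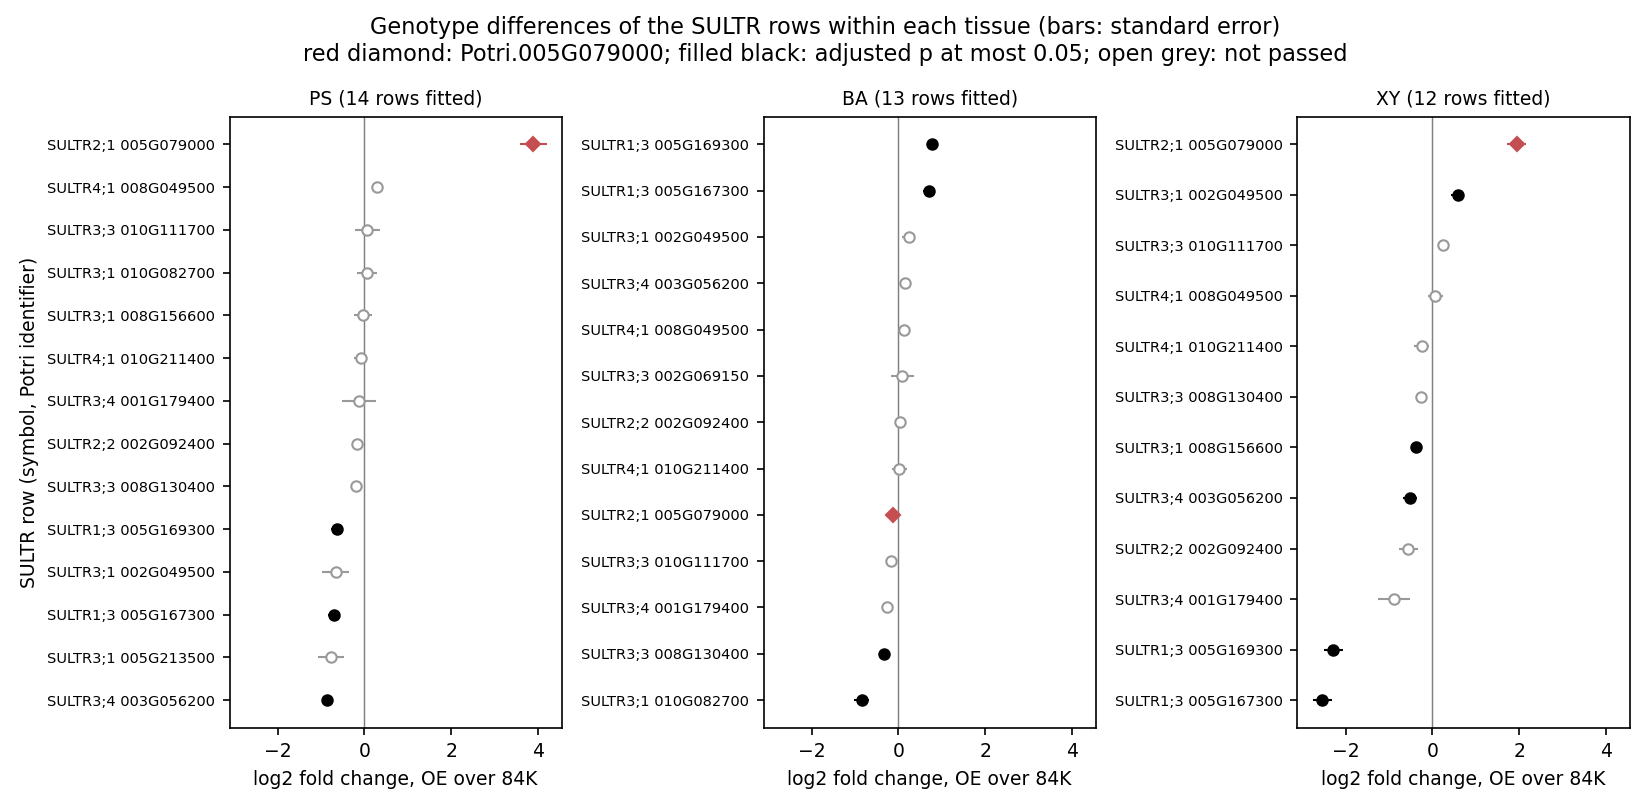
Log2 fold changes of *PagDET2*-OE over 84K for the SULTR rows with enough counts in PS (14), BA (13) and XY (12), with standard errors; the red diamond is Potri.005G079000, filled points passed an adjusted p of 0.05 and open points did not. The diamond has the values 3.89 (PS), -0.12 (BA) and 1.94 (XY). The 13 other rows of PS lie between -0.86 and 0.28. Nothing is read from the gene's place among them, because the contrast chose it. The gene itself passed the count filter in PS only through the overexpression libraries. That filter removed the other SULTR2;1 rows. Without it Potri.T079966 had 2.77 and Potri.007G088700 0.82 in PS, neither passing (adjusted p = 0.324 and 0.41, edgeR's quasi-likelihood test).

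In BA 2 of the other 12 rows tested were higher and 2 lower (6.19% and 5.34% of all genes), with a median log2 fold change of 0.07. The higher ones were the SULTR1;3 copies, at 8.16 ± 0.723 and 13.1 ± 0.487 CPM for Potri.005G167300 (log2 fold change 0.70, adjusted p = 0.00267) and 9.38 ± 0.706 and 15.8 ± 1.47 CPM for Potri.005G169300 (0.77, adjusted p = 0.00106), calls that are lost on FPKM with limma (adjusted p = 0.0606 and 0.0666). SULTR3;3 (Potri.008G130400) fell from 186 ± 4.52 to 146 ± 5.38 CPM (adjusted p = 0.00119) and SULTR3;1 (Potri.010G082700) from 7.87 ± 0.976 to 4.29 ± 0.615 CPM (adjusted p = 0.00629). Potri.005G079000, also most abundant in BA, lay between these with its -0.12.

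In XY 1 of the other 11 rows tested was higher and 4 were lower (10% and 9.34% of all genes), with a median log2 fold change of -0.38. The row that was higher with Potri.005G079000 was SULTR3;1 (Potri.002G049500), from 15.6 ± 3.14 to 24.0 ± 1.85 CPM, a log2 fold change of 0.58 (adjusted p = 0.00751). Without 84K XY replicate 2 this call is lost (0.45, adjusted p = 0.0519). Among the 11 rows that passed the count filter the SULTR1;3 copies had the most negative values. Potri.005G167300 had 11.6 ± 0.994 CPM in 84K and 2.03 ± 0.203 CPM in the overexpression lines (log2 fold change -2.54, adjusted p = 1.91e-07), and Potri.005G169300 had 15.6 ± 0.657 and 3.27 ± 0.991 CPM (-2.28, adjusted p = 4.16e-07). SULTR3;1 (Potri.008G156600) had a log2 fold change of -0.38 (adjusted p = 0.00179). SULTR3;4 (Potri.003G056200) had -0.52 (adjusted p = 0.0298), a call lost without 84K XY replicate 1, 84K XY replicate 2 or *PagDET2*-OE XY replicate 1 (adjusted p = 0.103, 0.117 and 0.143) and with DESeq2 (0.0686).

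The genotype effect of other SULTR rows also depended on the tissue. In 1 fit of all 18 libraries, which kept 15 of the other rows, the effect differed between BA and PS for 3 rows, between XY and PS for 4 and between XY and BA for 5 (9.27%, 10.1% and 13.3% of the 25726 genes tested). They were 6 rows in all, among them both SULTR1;3 copies in each of the 3 contrasts. Potri.007G088700 differed between XY and PS by -4.28 on the log2 scale (standard error 0.99, adjusted p = 0.00573). That difference was not tested for Potri.005G079000, since the choice of the gene rests on it.

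Among the enzymes that use sulfate, several rows of the first steps were higher in the same apex. Of 70 rows of sulfur assimilation and methionine metabolism, 51 were tested in PS, of which 8 were higher and 4 lower (8.08% and 6.90% of all genes), with a median log2 fold change of 0.03. APS3 (Potri.010G081200), an ATP sulfurylase, went from 127, 129 and 134 CPM in 84K PS to 201, 208 and 212 CPM in the overexpression lines, a log2 fold change of 0.67 (standard error 0.05, edgeR's quasi-likelihood test, adjusted p = 5.36e-07). APS1 (Potri.008G159000), another ATP sulfurylase, went from 74.0, 80.1 and 82.0 CPM to 120, 119 and 119 CPM, with 0.60 (standard error 0.06, adjusted p = 4.67e-06). No library of one genotype reached the range of the other in either gene. APR3 (Potri.004G012100), an APS reductase, went from 14.2 ± 1.41 to 23.4 ± 2.14 CPM, with 0.72 on the log2 scale (adjusted p = 0.000309).

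Grouped by enzyme after the values were seen, 2 of the 4 ATP sulfurylase rows tested in PS and both APS reductase rows tested were higher (8.08% of all genes). A grouping made in this way is a description and no test of a step. The second APS reductase row was Potri.T104400 (from 26.0 ± 2.35 to 38.3 ± 3.73 CPM, adjusted p = 0.000896, edgeR's quasi-likelihood test). The other 4 higher rows were the APS kinase AKN1 (Potri.001G293400), which diverts activated sulfate to sulfation, the serine acetyltransferase SERAT3;2, the S-adenosylmethionine synthetase SAM1, and LSU2 (Potri.015G000500), a gene of the response to low sulfur in *Arabidopsis*, from 1.85 ± 0.219 to 3.54 ± 0.206 CPM (adjusted p = 0.00971). The 4 lower rows were 3 copies of methionine gamma-lyase (MGL), which breaks methionine down, and CYSC1, a beta-cyanoalanine synthase. The changes of all 12 rows were under 2-fold.

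**Figure D4:**
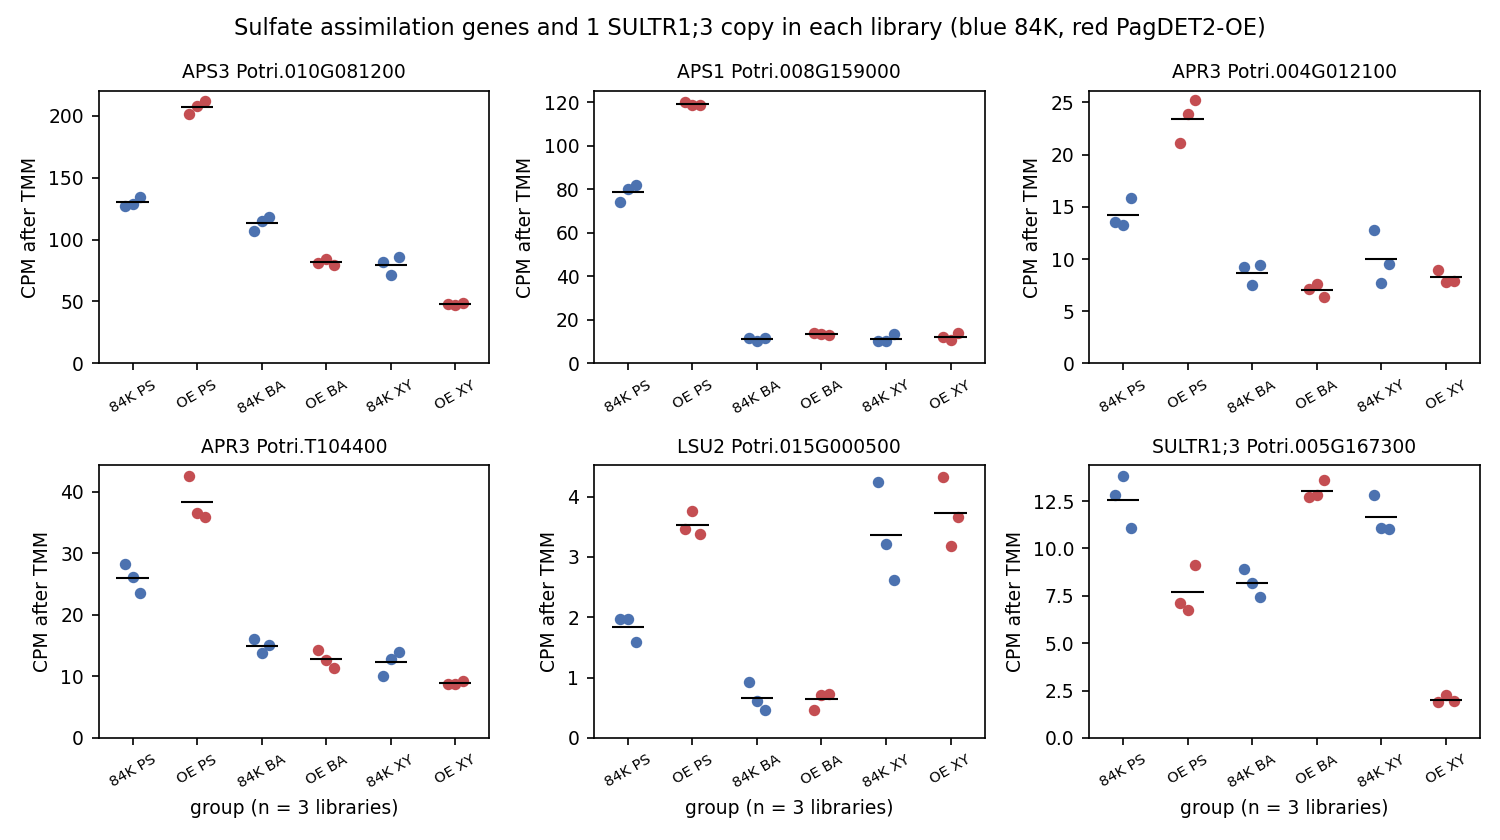
CPM after TMM in each library for ATP sulfurylases APS3 and APS1, both tested APS reductase rows (APR3), LSU2 and SULTR1;3 (Potri.005G167300); points are libraries, lines group means (n = 3), blue 84K and red *PagDET2*-OE. The red points lie above the blue ones in PS for the first 5 genes and below them for SULTR1;3, and APS3 is lower in the overexpression lines in BA and XY.

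In XY, where the level of Potri.005G079000 was also higher, no ATP sulfurylase or APS reductase row passed as higher. APS3 fell from 79.7 ± 7.60 to 47.6 ± 0.830 CPM, a log2 fold change of -0.78 (adjusted p = 2.74e-06) and Potri.T104400 from 12.3 ± 2.00 to 8.95 ± 0.280 CPM (adjusted p = 0.0454), while 8 of the 49 rows tested were higher and 4 lower (10% and 9.34% of all genes; median 0.08). AKN1 (Potri.001G293400) was higher there too, from 21.2 ± 1.89 to 33.9 ± 4.15 CPM (adjusted p = 0.000812). The higher ones in XY also included SAMS3 (Potri.013G004100) and SAM1 (Potri.010G153500), which make S-adenosylmethionine, with log2 fold changes of 0.44 and 0.42 (adjusted p = 1.8e-05 and 2.15e-05), and the methionine synthase ATMS1 (Potri.004G190900) with 0.30 (adjusted p = 0.000155). In BA 4 of the 53 rows tested were higher and 7 lower (6.19% and 5.34% of all genes; median -0.04). The lower ones included APS3 (from 113 ± 5.57 to 81.6 ± 2.71 CPM, adjusted p = 0.000339) and the ATMS1 rows Potri.019G038200 and Potri.T070100, with -0.62 and -0.57 (adjusted p = 2.64e-05 and 0.000196). SLIM1, a transcription factor of sulfur limitation in *Arabidopsis*, had 2 of 3 rows higher in BA and none in PS or XY (3 rows tested in each). The passing rows of this list number 5 or 6 in place of 11 in BA without replicate 1 or 2 of either genotype, and 7 in place of 12 in XY without 84K XY replicate 2.

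Markers of the phloem, a tissue of the bark, were read beside the gene in the apex samples. Of 10 phloem rows 9 were tested in PS: 0 were higher and 1 was lower in the *PagDET2*-OE lines (8.08% and 6.90% of all genes, so that the counts are near the background), with a median log2 fold change of -0.15. Their summed level was 148 to 161 CPM in 84K PS and 130 to 155 CPM in *PagDET2*-OE PS. The lower row was a copy of the sucrose transporter SUC2 (Potri.019G085800), at 17.4 and 11.1 CPM on average (adjusted p = 0.000688), and none of the 10 rows was at 0. That SUC2 copy was at 796 CPM in 84K BA and 1120 CPM in 84K XY, so the sum did not single out the bark. Whether phloem content had a part in the level of Potri.005G079000 was not tested. In XY the phloem sum, nearly all of it that SUC2 copy, was 1119 to 1147 CPM in 84K and 1004 to 1050 CPM in the overexpression lines, with 0 of the 2 rows tested higher (10% of all genes).

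Other lists did differ in PS. Of 60 rows of nuclear photosystem genes, 58 were tested and 29 were higher and 1 lower (8.08% and 6.90% of all genes), with sums of 8601 to 9546 CPM in 84K and 9755 to 11223 CPM in *PagDET2*-OE PS. In XY the secondary wall rows had 15 of 31 higher and 0 lower (10% and 9.34% of all genes), with sums of 26702 to 28319 and 30477 to 33377 CPM. In BA 15 of 24 of these rows were lower and 1 was higher, where 5.34% and 6.19% of all genes were (sums of 1100 to 1192 and 773 to 833 CPM). Apex and meristem rows had 0 of 7 higher and 2 lower in PS and cambium rows 1 of 11 higher and 3 lower. Epidermis rows had 4 of 14 higher and 1 lower, beside the same 8.08% and 6.90% of all genes. Marker symbols were matched without a check of the description, so these lists may hold rows of other families. The lower apex row Potri.008G002900 also carries the symbols SHM1 and SHMT1, and the epidermis row Potri.008G118500 also carries PP2AA2. The higher epidermis row Potri.014G161300 was at 118 CPM in 84K PS, 82.3 CPM in 84K BA and 131 CPM in 84K XY. The part of these lists in the levels of Potri.005G079000 was not tested.

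The genes around the locus were read between genotypes in PS. Nothing is read from the size of their differences beside that of Potri.005G079000, because the contrast chose it. Of the 5 annotated genes on each side, 6 were tested, 1 was higher and 1 lower (8.08% and 6.90% of all genes). Of the 4 that had too few counts to be tested, 2 had no count in PS and Potri.005G079400 had 0 counts in 84K and 6 in the overexpression lines. The nearest on each side were Potri.005G078900, 3528 bp away, with 10 counts in all 84K PS libraries and 20 in all *PagDET2*-OE PS libraries, and Potri.005G079100, 2922 bp away, with 114 and 123 counts (log2 fold change 0.10, adjusted p = 0.803, edgeR's quasi-likelihood test). MIPS3 (Potri.005G078700), which makes the precursor of inositol, was the higher one (0.37, adjusted p = 0.000745), and Potri.005G078500 the lower one (-0.42, adjusted p = 0.00555).

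The genes whose log level followed it most closely over the 18 libraries, among the 24080 genes whose mean reached 1 CPM, all had lower means in 84K PS than in 84K BA, from 1.75-fold for Potri.010G045800 to 25.3-fold for GASA1. Pearson's r was 0.97 for Potri.010G045800 (a ribosomal protein L18e/L15 family member), 0.95 for Potri.004G197600 (an LEA hydroxyproline-rich glycoprotein) and 0.94 for Potri.014G149900 (a lipid-transfer family protein). It was 0.93 for GASA1 (Potri.005G239100), a small peptide of a gibberellin-responsive family, and 0.93 for Potri.015G128700 (an invertase or pectin methylesterase inhibitor). These values describe 18 libraries that fall into 6 groups, and the genes were picked for them. None had as wide a range: GASA1, the closest in this, went from 3.77 ± 0.802 CPM in 84K PS to 9.63 ± 1.75 in *PagDET2*-OE PS, from 17.9 ± 1.0 to 31.5 ± 1.66 CPM in XY, and held 95.8 ± 3.38 and 90.0 ± 0.976 CPM in BA. GASA1, Potri.004G197600 and Potri.014G149900 had both their PS and their XY libraries apart between genotypes, as had Potri.005G079000. The correlation that picked them used these same libraries, so the shared gap is a description only. Potri.014G149900 was, unlike Potri.005G079000, also higher in BA of the overexpression lines (log2 fold change 0.22, adjusted p = 0.0255, edgeR's quasi-likelihood test).

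**Figure D5:**
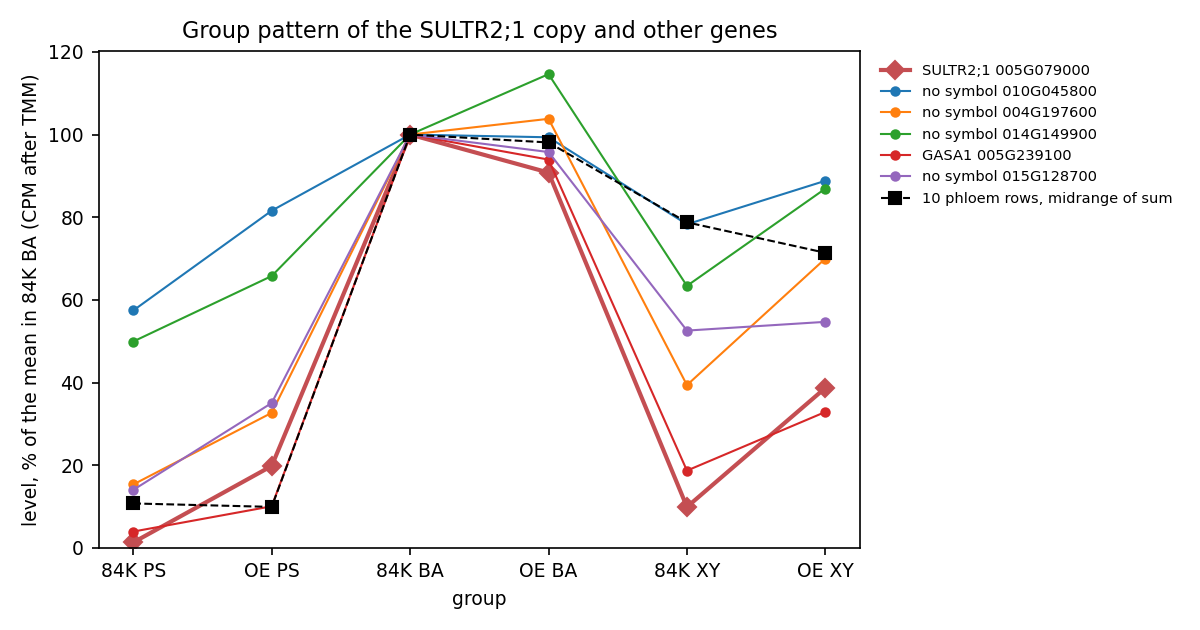
Mean CPM of each group as a percentage of that in 84K BA for Potri.005G079000, the 5 genes with the highest Pearson's r with it, and the midrange of the summed phloem rows (dashed). The gene and the 5 others have their lowest means in 84K PS and higher means in *PagDET2*-OE PS and XY than in 84K. In XY the libraries of Potri.010G045800 and Potri.015G128700 overlap between genotypes. The phloem sum is no higher in the overexpression lines in any tissue, and its part in the level of the gene was not tested.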

How the data were processed

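The authors aligned reads to *P. trichocarpa* (genome version 3.1) using HISAT2 (version 2.0.4), counted fragments per gene with StringTie (version 1.3.0), and deposited both counts and FPKM, which the authors scaled by gene length and library size. The counts were tested as deposited. Genes were filtered with filterByExpr of edgeR (minimum count 10, total 15, large group 10, proportion 0.7), scaled by TMM, and tested with robust quasi-likelihood fits in edgeR (version 4.0.16, R 4.3.3) with Benjamini-Hochberg adjustment over all genes. Higher and lower mean an adjusted p of 0.05 or less, with no limit on the fold. Genotypes were compared within a tissue (6 libraries), tissues in 84K only (9 libraries), and interactions over 18 libraries.

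Alternatives were RLE size factors, no count filter, a mean of at least 50 counts, DESeq2 (version 1.42.0), limma (version 3.58.1) on log2(FPKM + 0.1) or log2(FPKM + 1), 1 fit of 18 libraries, a replicate block, and each library left out. Ratios of pooled counts have exact 95% conditional intervals, for counting error only, and library totals of 7983668 to 12052409 counts set the precision. Named genes were the transporter, DET2, the other SULTR rows, up to 8 sulfur rows with the smallest adjusted p, the 5 genes most like it (log2 CPM, prior count 2) and 5 neighbours on each side. Other sulfur rows, the phloem row and tissue markers named one by one were chosen after their values were seen. From the sulfur list 27 rows were removed by description, as members of unrelated families under the same symbols. The gene, its lists and tests were chosen with earlier results of these data known.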

Additional observations from a re-analysis of the deposited data

Results flagged for a closer look

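The genotype effect of 6 other SULTR rows differed between tissues in the interaction test over 18 libraries (edgeR's quasi-likelihood test, adjusted p at most 0.05, differences of log2 fold changes). For SULTR1;3 the effect in BA exceeded that in PS by 1.39 (Potri.005G167300) and 1.40 (Potri.005G169300), and that in XY differed from PS by -1.81 and -1.61 and from BA by -3.20 and -3.01. The copies thus had opposite directions in BA and in XY. SULTR3;4 (Potri.003G056200) differed by 1.0 between BA and PS and by -0.64 between XY and BA. SULTR3;1 (Potri.002G049500) differed by 1.26 between XY and PS. SULTR3;3 (Potri.010G111700) differed by 0.45 between XY and BA. The SULTR2;1 row Potri.007G088700 differed by -4.28 between XY and PS and by -4.31 between XY and BA, on at most 21 counts in a library.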

How the results depend on the processing

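Of 298 alternative values 276 kept their call and direction, or stayed within 1.5 times a count or the spread between replicates, and 22 moved further. Only the fold changes of Potri.005G079000 could reverse, since the other values are counts of passing rows, and none of these fold changes did. Matching SULTR rows on description too picked the same 22 rows and could change nothing. Single SULTR rows did change sign on FPKM, such as Potri.010G211400 in PS against XY (from -0.43 to 0.13). The genotype difference of Potri.005G079000 was 1.76 in PS and 1.25 in XY with a pseudocount of 1 FPKM. Leaving out 1 library gave 3.58 to 4.18 in PS, -0.20 to -0.06 in BA and 1.84 to 2.02 in XY. A mean of at least 50 counts removed the gene in PS and XY. The tissue differences in 84K passed under all 14 alternatives each, at -6.51 to -3.79 (PS against BA), -3.20 to -0.78 (PS against XY) and -3.76 to -3.01 (XY against BA). Every alternative reuses wild-type PS libraries that entered the choice of the gene. For the comparisons with PS their passing is therefore a description and adds no support.

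Passing SULTR rows other than this gene numbered 3 in PS. They were 1 on FPKM with either pseudocount and 3 to 5 without 1 library, with 5 when *PagDET2*-OE PS replicate 3 was left out. They numbered 4 in BA (2 on FPKM with a pseudocount of 0.1) and 5 in XY (8 in 1 fit of all libraries). Passing sulfur rows numbered 11 in BA (6 with DESeq2, 5 to 10 without 1 library, with 5 or 6 for replicates 1 and 2 of both genotypes) and 12 in XY (7 to 11 without 1 library, with 7 for 84K replicate 2). Passing genes numbered 3590 in PS (2251 with DESeq2, 2106 to 3606 without 1 library, with 2106, 2122 and 2281 for 84K replicates 1 and 2 and *PagDET2*-OE replicate 1) and 2728 in BA (1435 to 2817 without 1 library, with 1555 and 1435 for 84K replicates 1 and 2).

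Replicate numbers were not taken as pairs, since no pair of groups had all 3 same-numbered correlations above 0.1. Between genotypes the best match of a library had its own number for 6 of 6 libraries in BA, 2 of 6 in PS and 4 of 6 in XY. Between tissues of 84K this held for 6 of 6 libraries of PS and BA, 4 of 6 of PS and XY and 2 of 6 of XY and BA. For 84K PS and BA the same-numbered correlations were 0.067 to 0.12 and the others at most 0.012. Whether libraries of 1 number share a tree was not tested. A replicate block gave 5 SULTR rows in PS (1 higher and 4 lower) and 5491 genes in PS and 4348 in BA. The cause of these changes was not tested. The main limit of depth is the 11 counts of the gene in 84K PS.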
